A study of Homo sapiens and synthetic construct with 52 samples.

Results

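The 34 genes described here encode the nuclear subunits of respiratory complexes III and IV, the proteins that assemble them, the supercomplex factor COX7A2L and the mitochondrial mRNA stability factor LRPPRC. They were chosen by symbol: every guide whose name began with a listed symbol was taken, which found all 34 genes among the 18788 genes of the library and 175 of its 101179 gene-targeting guides. Each start site carried 5 guides, and UQCRC1 was the member with 2 start sites and therefore 10 guides. The readout was the abundance of each guide in pooled CRISPR interference (CRISPRi), in which a catalytically dead Cas9 fused to the KRAB repressor is directed to a gene's start site and lowers its transcription. The counts do not measure how far each gene was repressed.

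All screens used K562, an established human chronic myeloid leukaemia line that carries the BCR-ABL1 fusion, as a sorted pool of cells stably expressing dCas9-KRAB. The same guide sequences were delivered either in the LGR library, cloned by a protocol made to even out guide abundance, or in the earlier publicly available legacy library. In the survival screens LGR cells were kept at 1000-fold coverage (cells per guide; 1 starting sample, T0, and 3 final samples, Tf) or 100-fold coverage (2 T0 and 4 Tf), with Tf taken after 7 days of culture. In the dasatinib screens each library at 100-fold coverage had 2 T0 samples, 2 samples exposed to 0.01% DMSO and 2 exposed to 0.75 nM dasatinib, an inhibitor of ABL and SRC family kinases, in both arms for 72 h followed by 6 days of recovery. Each library in the dasatinib screens was transduced once and then split, so those replicates were technical, the p-values measure the spread between these samples alone, and library and transduction cannot be told apart. The paper also calls replicates of the 100-fold survival screen technical, and the p-values there carry the same limit.

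Complex III (cytochrome bc1) passes electrons from ubiquinol to cytochrome c, and complex IV (cytochrome c oxidase) passes them from cytochrome c to oxygen. Both pump protons that drive ATP synthesis, and both join a catalytic core, part of which is encoded in mitochondrial DNA, to nuclear-encoded subunits. Their metal centres are put in by dedicated factors: BCS1L brings in the Rieske iron-sulfur protein UQCRFS1, COX10 and COX15 make haem A, and COX11, COX17, COX19, SCO1 and SCO2 deliver copper.

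Because CRISPRi guides sit around start sites, 4 start regions are shown, for 3 assembly factors whose promoters held a searched motif and for COX4I1, the gene called under dasatinib in both libraries. RefSeq (GRCh38.p14) start regions of 300 bases, from 250 before to 50 after the start, were at hand for 29 of the 34 genes. Capitals mark the letters CCGGAAGT or, on the other strand, ACTTCCGG, an ETS-type motif, and the letters GCATGCGC or GCGCATGC, a core of the NRF1 motif whose 2 strands can overlap. The ETS letters stood in the regions of 9 of the 29 genes (UQCRH, UQCRQ, UQCR11, COX5B, COX8A, COX10, COX15, COX17 and SCO1) and in 4.14% of all 35116 such regions. The NRF1 core stood in 4 of the 29 (COX5B, COX6A1, COX17 and COX18) and in 3.05% of all. The counts of 9 and 4 are of genes, which had 33 regions between them, while the shares are of regions, so they are unlike measures. Which of these RefSeq starts the guides were designed on was not known here, and positions from the guide names were not placed on this build.
COX10, chr17:14069254-14069553, + strand: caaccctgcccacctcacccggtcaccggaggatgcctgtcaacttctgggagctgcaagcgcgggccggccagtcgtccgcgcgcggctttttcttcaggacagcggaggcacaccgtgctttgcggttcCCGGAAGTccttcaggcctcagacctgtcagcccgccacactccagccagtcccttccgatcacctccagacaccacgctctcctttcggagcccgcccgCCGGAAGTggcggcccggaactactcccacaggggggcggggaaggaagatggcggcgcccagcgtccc
SCO1, chr17:10697484-10697783, − strand: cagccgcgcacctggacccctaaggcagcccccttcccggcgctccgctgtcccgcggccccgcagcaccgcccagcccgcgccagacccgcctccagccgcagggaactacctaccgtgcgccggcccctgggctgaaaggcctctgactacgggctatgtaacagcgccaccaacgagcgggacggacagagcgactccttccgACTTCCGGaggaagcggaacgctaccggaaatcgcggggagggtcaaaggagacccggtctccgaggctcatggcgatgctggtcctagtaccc
COX17, chr3:119677357-119677656, − strand: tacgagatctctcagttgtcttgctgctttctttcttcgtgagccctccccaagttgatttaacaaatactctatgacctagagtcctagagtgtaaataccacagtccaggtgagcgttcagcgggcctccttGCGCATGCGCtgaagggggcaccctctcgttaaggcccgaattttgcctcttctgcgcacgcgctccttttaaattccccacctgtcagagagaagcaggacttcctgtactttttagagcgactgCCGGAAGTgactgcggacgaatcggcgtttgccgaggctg
COX4I1, chr16:85799445-85799744, + strand: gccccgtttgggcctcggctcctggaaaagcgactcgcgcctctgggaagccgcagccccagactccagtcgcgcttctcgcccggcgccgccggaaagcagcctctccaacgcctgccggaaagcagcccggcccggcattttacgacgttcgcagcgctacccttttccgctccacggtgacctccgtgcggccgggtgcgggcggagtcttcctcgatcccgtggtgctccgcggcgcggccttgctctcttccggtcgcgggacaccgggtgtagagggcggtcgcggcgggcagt
COX10 held 2 ETS matches, SCO1 held 1, COX17 held 1 beside the NRF1 core, and COX4I1 held neither set of letters.

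Sequencing gave 105684438 to 111002750 guide counts per sample at 1000-fold coverage, 47678549 to 54678272 at 100-fold and 15739255 to 19844033 in the dasatinib screens. Of the 175 guides to these genes, none was under 50 counts (mean of the 2 samples) at T0 of the LGR dasatinib screen and 7 were in the legacy one. In DMSO 35 and 34 of them were under 50 counts, so the dasatinib over DMSO values of the genes lost most during growth rested on few counts. Changes are log2 values of CPM, counts scaled to the sample's total, relative to the median non-targeting guide. Each gene was summarised by its phenotype, taken over the 3 guides furthest from 0 among those with at least 50 counts in either arm and averaged. A gene was called when its phenotype times −log10 of the exact two-sided Mann-Whitney p of its guides against the 1895 non-targeting guides passed an estimated false discovery rate of 0.05. That score treats guides as repeats, so the spread over samples is given by limma on gene means and by edgeR per guide. Guides of 1 gene share a target, and 85 of the 175 lay under 20 bp from another guide of their start site.

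Guides to many of these genes were lost during growth without drug, in both libraries and at both coverages. At 1000-fold coverage 16 of the 34 genes were called lower in Tf than in T0, against 11.5% of all genes scored, and at 100-fold 14 were, against 10.5%. In DMSO over T0 15 were called lower in LGR, against 10.3%, and 13 in legacy, against 9.35%. The median phenotype of the 34 genes was −0.47, −0.67, −0.98 and −0.72 in these 4 comparisons, beside −0.06, −0.09, −0.11 and −0.11 over all genes. By edgeR, 60 guides were lower at 1000-fold coverage, against 9.07% of all guides, and 28 at 100-fold, against 5.68%. Over all guides at 1000-fold coverage 9343 were lower and 1117 higher, a split that became 8697 and 2852 without TMM scaling, where 56 of the 175 were lower and 1 was higher. In DMSO over T0 54 guides were lower in LGR, against 7.42%, and 50 in legacy, against 6.88%. The 28 guides at 100-fold coverage fell to 8 without the first T0 sample and to 13 without the second. In LGR DMSO over T0 the 54 fell to 35 without T0 sample A and to 32 without B.

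Within most roles some genes were called and others were not. The same 12 genes were called in all 4 growth comparisons: the complex III subunits UQCRB, UQCRC1, UQCRFS1 and UQCRQ, the complex III factor BCS1L, the complex IV subunits COX6C and COX7C, the complex IV factors COX10, COX11, COX16 and SCO1, and LRPPRC. Another 16 were called in none: UQCRC2, UQCRH, UQCR10 and UQCR11 of complex III, TTC19, the complex IV subunits COX5B, COX6A1, COX7A2, COX7B and COX8A, COX7A2L, and the factors COX14, COX18, COX19, SCO2 and SURF1. The remaining 6, CYC1, COX4I1, COX5A, COX6B1, COX15 and COX17, were called in some. A missing call does not mean that no guide was lost. A COX5B guide changed by −1.46, −1.70, −2.74 and −1.48 and a UQCRC2 guide by −1.11, −1.57, −2.20 and −1.92. Both were called lower by edgeR in each comparison, and no other guide of these 2 genes was. Among the 16, limma on gene means called UQCRC2, UQCR10 and COX5B lower at 1000-fold coverage and UQCRC2 and SCO2 in LGR DMSO. By role, all 4 comparisons called 4 of 9 complex III subunits, 1 of 2 complex III factors, 2 of 10 complex IV subunits and 4 of 11 complex IV factors. The difference between roles was not tested. Over all genes 9.35% were called lower in legacy DMSO, so the share called lower in all 4 comparisons can be no larger. How many of all genes were called in all 4 or in none was not counted. With a Benjamini-Hochberg adjusted Mann-Whitney p in place of the score, 14, 11, 12 and 9 of the 34 were called, and the calls lost included COX10 in 3 comparisons, UQCRC1 in 3 and COX7C in 2.

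**Figure D1:**
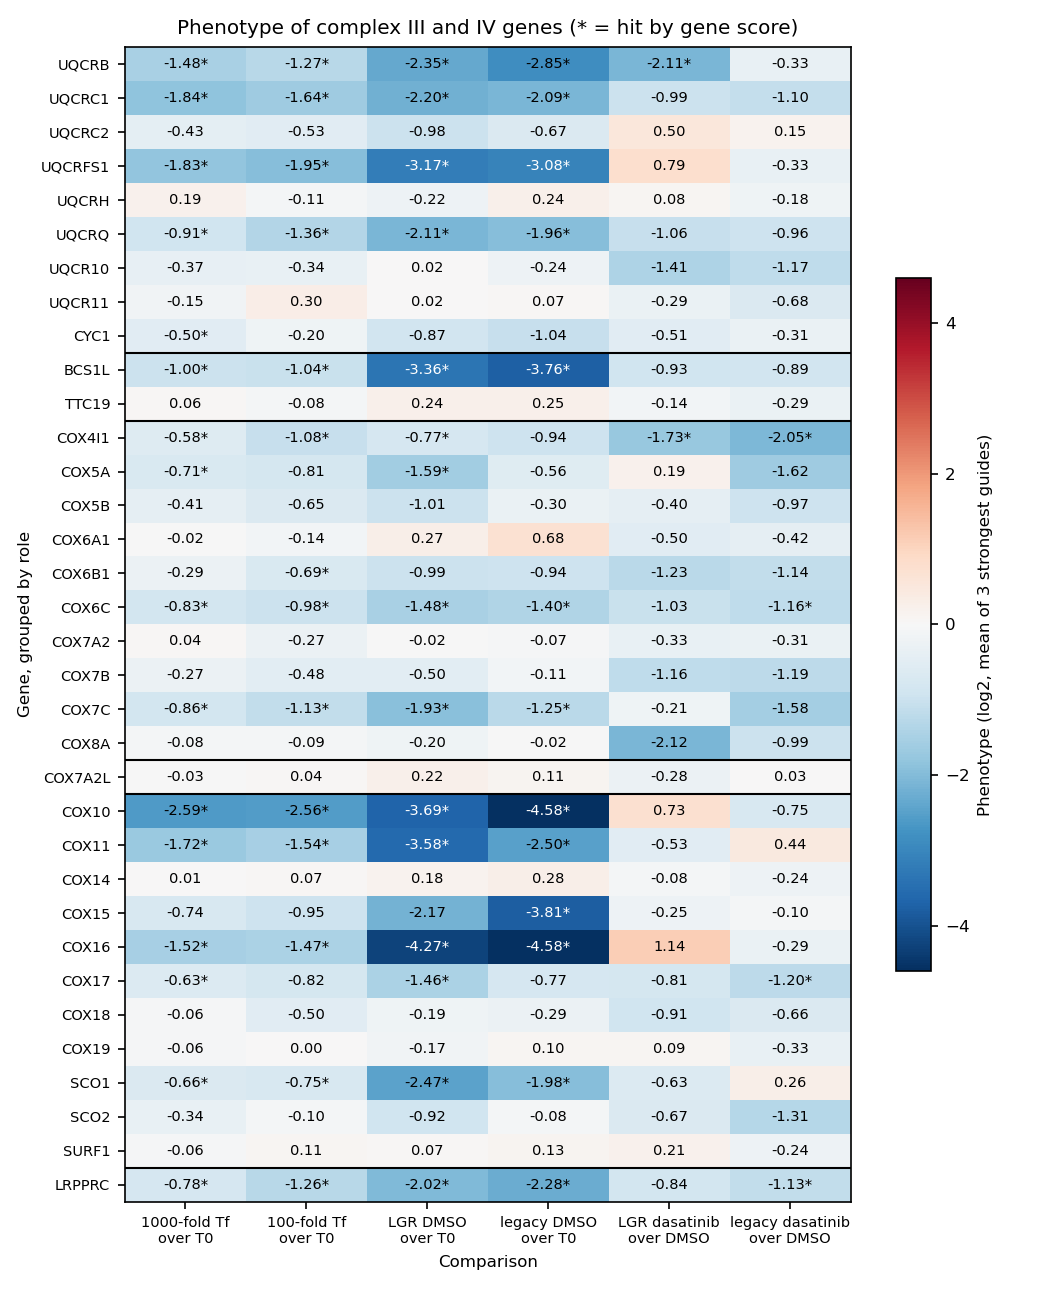
Phenotype (log2, colour) of each of the 34 genes (rows, grouped by role) in the 4 growth and 2 dasatinib comparisons (columns), with an asterisk where the gene was called. The 12 genes called in all 4 growth columns lie in every role except the supercomplex factor COX7A2L, and COX4I1 is the gene with an asterisk in both dasatinib columns.

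Among complex III subunits, UQCRFS1, the Rieske protein that carries the complex's iron-sulfur cluster, was lost furthest in 3 of the 4 comparisons. At 1000-fold coverage its 3 strongest guides stood at 0.09 in T0 and at −1.83, −1.70 and −1.64 in the Tf samples. At 100-fold coverage they stood at 0.06 and −0.06 in T0 and at −1.60, −1.29, −2.70 and −2.24 in Tf. The 3 strongest guides of a gene were picked by their change between these same samples, so a gap between T0 and Tf in such values is no separate test. The phenotype was −1.83 and −1.95 in the survival screens, −3.17 in LGR DMSO and −3.08 in legacy DMSO. One of its guides had 84 and 98 counts at LGR T0 and 76 and 57 at legacy T0 and 0 in all 4 DMSO samples, and a count of 0 was set to 1. In these gene means limma gave −2.09 ± 0.15 (SE) in LGR, with an adjusted p of 3.86e-05, and −2.07 ± 0.11 in legacy, with an adjusted p of 1.88e-05.

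UQCRC1, a core protein of the matrix arm of complex III, was lost furthest of these subunits at 1000-fold coverage. Its 3 strongest guides stood at −0.002 in T0 and at −1.69, −1.88 and −1.91 in Tf. At 100-fold coverage they stood at −0.44 and −0.09 in T0 and at −2.40, −1.60, −1.66 and −1.997 in Tf. Its 2 start sites differed in call in every growth comparison. The first, P1, gave −1.84, −1.64, −2.20 and −2.09 and was called each time. The second, P2, gave −0.20, −0.35, −0.43 and −0.60 and was called in none, with exact Mann-Whitney p between 0.0895 and 0.153. The difference between the start sites was not tested, and with a minimum of 100 counts the LGR DMSO value came from P2 and the call was lost.

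UQCRB, a small subunit at the ubiquinone site, had phenotypes of −1.48, −1.27, −2.35 and −2.85, and UQCRQ, another small subunit, of −0.91, −1.36, −2.11 and −1.96. CYC1, the haem-bearing cytochrome c1, was called at 1000-fold coverage alone, at −0.50. That call was lost without the second Tf sample (−0.51), without centring on non-targeting guides (−0.42) and with the adjusted Mann-Whitney p. At 1000-fold coverage its 3 strongest guides stood at 0.49 in T0 and at 0.04, 0.02 and −0.05 in Tf. At 100-fold they stood at 0.15 and 0.03 in T0 and at −0.25, −0.01, −0.08 and −0.14 in Tf. In the dasatinib screens CYC1 gave −0.87 in LGR DMSO and −1.04 in legacy DMSO without a call. The second core protein, UQCRC2, gave −0.43 to −0.98 over the 4 comparisons, and UQCRH, UQCR10 and UQCR11 stayed between −0.37 and 0.30.

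The 2 complex III factors lay at opposite ends. BCS1L guides, averaged over all 5, stood at 0.31 and 0.42 in LGR T0 and at −2.39 and −2.08 in DMSO. In legacy they stood at −0.37 and −0.58 in T0 and at −3.53 and −3.36 in DMSO. All 5 BCS1L guides were lower by edgeR in both libraries, with log2 changes from −1.27 to −3.74 in LGR and from −1.58 to −4.39 in legacy. TTC19, which clears fragments of the Rieske protein, gave 0.06, −0.08, 0.24 and 0.25 and was never called.

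Among complex IV factors the furthest losses were those of COX10, COX15, COX16 and COX11. COX10 makes haem O, the precursor of haem A. At 1000-fold coverage its 3 strongest guides stood at 0.47 in T0 and at −2.20, −1.90 and −2.24 in Tf. At 100-fold they stood at 0.37 and 0.57 in T0 and at −2.41, −2.004, −2.45 and −1.54 in Tf. Its phenotype was −2.59 and −2.56 in these screens, the furthest of the 34 genes in both, and −3.69 and −4.58 in LGR and legacy DMSO. Averaged over its 5 guides it stood at 0.10 and −0.10 in LGR T0 and at −2.57 and −2.07 in DMSO, and in legacy at −0.63 and −0.27 and then at −3.21 and −3.41. The loss in DMSO was larger than the spread of either group. In DMSO over T0 its 5 guides differed by position. The 3 that lay 38, 45 and 62 bp from the first changed by −3.58, −1.89 and −4.79 in LGR DMSO over T0 and by −3.68, −4.04 and −4.67 in legacy. The first guide changed by −0.17 and 0.22 and the one 343 bp from it by −0.23 and −0.80, none of them called by edgeR. At 1000-fold coverage, however, that far guide was called lower, at −0.63 with an edgeR adjusted p of 0.000311. The first guide there changed by 0.20 without a call, and at 100-fold neither was called.

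COX15, which turns haem O into haem A, was called in legacy DMSO (−3.81) but not in LGR DMSO (−2.17). Averaged over its 5 guides it stood at 0.18 and 0.22 in LGR T0 and at −0.99 and −0.85 in DMSO, and in legacy at −0.06 and −0.20 and then at −2.21 and −2.66. In both libraries the groups did not overlap. In LGR its first 3 guides, within 37 bp, changed by −1.47, −1.06 and −3.77, and the 2 guides 454 and 557 bp away by 0.68 and 0.41. In legacy the first 3 changed by −3.43, −0.82 and −9.79 and the far ones by 0.06 and −0.14. The guide at −0.82 was not called there by edgeR. It changed by −0.15 at 1000-fold and by 0.20 at 100-fold coverage, also without a call. The value of −9.79 came from a guide with 147 and 80 counts at T0 and 0 in both DMSO samples, so that its size is not a measured fold.

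COX16, which helps form the copper-bearing module of complex IV, had the furthest phenotype in DMSO over T0 in both libraries, −4.27 and −4.58, and gave −1.52 and −1.47 in the survival screens. Averaged over 5 guides it stood at 0.25 and 0.26 in LGR T0 and at −3.65 and −2.45 in DMSO. In legacy it stood at −0.18 and −0.35 in T0 and at −2.90 and −3.86 in DMSO. COX11, which delivers copper to the COX1 subunit, gave −1.72, −1.54, −3.58 and −2.50. At 1000-fold coverage its 3 strongest guides stood at 0.41 in T0 and at −1.18, −1.40 and −1.33 in Tf. At 100-fold they stood at 0.37 and 0.43 in T0 and at −1.08, −0.92, −1.60 and −0.995 in Tf. In LGR its 5 guides averaged 0.10 and 0.26 at T0 and −2.36 and −2.85 in DMSO, with no overlap. SCO1, a copper chaperone for the COX2 subunit, gave −0.66, −0.75, −2.47 and −1.98, whereas its relative SCO2 gave −0.34, −0.10, −0.92 and −0.08 with no call.

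COX17, which hands copper to the SCO proteins and COX11, was called at 1000-fold coverage (−0.63) and in LGR DMSO (−1.46). It was not called at 100-fold (−0.82) or in legacy DMSO (−0.77). At 1000-fold its strongest guides stood at 0.57 in T0 and at −0.06, −0.004 and −0.08 in Tf. At 100-fold they stood at 0.75 and 0.47 in T0 and at −0.16, −0.29, −0.28 and −0.14 in Tf. These guides were picked by their change between the same samples, so the gap between T0 and Tf is no separate test. The other COX17 guides changed by 0.43 and 0.31 at 100-fold and by −0.18 and 0.08 at 1000-fold, with no edgeR call. Averaged over 5 guides it stood at 0.47 and 0.58 in LGR T0 and at −0.35 and −0.39 in DMSO, and in legacy at 0.35 and 0.47 and then at 0.19 and −0.16. SURF1, COX14, COX18 and COX19 ranged from −0.50 to 0.28 over the 4 comparisons.

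The 10 complex IV subunits had median phenotypes of −0.35, −0.67, −0.88 and −0.43, beside −0.63, −0.75, −1.46 and −0.77 for the 11 complex IV factors, a difference that was not tested. COX7C gave −0.86, −1.13, −1.93 and −1.25 and COX6C gave −0.83, −0.98, −1.48 and −1.40, the furthest of the 10 subunits in DMSO over T0 in LGR and legacy respectively. COX4I1, the largest nuclear-encoded subunit, gave −0.58, −1.08, −0.77 and −0.94 and was called in all but legacy DMSO. Its call in LGR DMSO was lost without either DMSO sample or without T0 sample A, at −0.82, −0.80 and −0.78. COX5A, which lies on the matrix side, was called at 1000-fold coverage (−0.71) and in LGR DMSO (−1.59). At 1000-fold its strongest guides stood at 0.56 in T0 and at −0.10, −0.04 and −0.26 in Tf. At 100-fold they stood at 0.66 and 0.57 in T0 and at 0.16, 0.13, −0.59 and −0.53 in Tf. Averaged over 5 guides COX5A stood at 0.51 and 0.45 in LGR T0 and at −0.66 and −0.61 in DMSO, and in legacy at −0.025 and −0.017 and then at −0.31 and −0.37, without overlap in either. COX6B1, which faces the intermembrane space, was called at 100-fold coverage alone (−0.69), and that call was lost without the third Tf sample (−0.61). At 100-fold its strongest guides stood at 0.76 and 0.76 in T0 and at 0.40, 0.26, −0.27 and −0.15 in Tf. At 1000-fold they stood at 0.85 in T0 and at 0.51, 0.66 and 0.55 in Tf.

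LRPPRC, which keeps mitochondrial mRNAs stable for both complexes and others, gave −0.78, −1.26, −2.02 and −2.28. COX7A2L, which links complexes III and IV into a supercomplex, gave −0.03, 0.04, 0.22 and 0.11. In the opposite direction, edgeR called 2 of the 175 guides higher in LGR DMSO over T0, 1 each to COX7A2L and TTC19, against 0.535% of all guides, and 1 to COX6A1 in legacy, against 0.62%. The gene score called none of the 34 higher in growth, but COX6A1 was called higher in legacy DMSO over T0 when the second DMSO sample was left out.

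Both libraries placed the genes in nearly the same order of growth loss. For DMSO over T0 the phenotypes in LGR and legacy had a Pearson r of 0.94 over the 34 genes and 0.86 over all 18743 genes scored in both. For Tf over T0 the 2 coverages gave 0.94 over the 34. These points share guide sequences, and the r values are descriptions. In both libraries 13 of the 34 genes (38.2%) stood at or below −1 in DMSO over T0, beside 9.06% of all genes. A test of the difference between libraries, the edgeR interaction, called 1 of the 175 guides, against 0.149% of all guides tested. This COX5A guide had 188 and 172 counts at LGR T0 and 51 and 60 in DMSO, and 226 and 189 at legacy T0 and 211 and 218 in DMSO. The change in legacy was 1.70 ± 0.36 (SE) above that in LGR, with an edgeR adjusted p of 0.0446. The call was lost without TMM scaling and when any 1 of 5 of the 8 samples was left out: either T0 sample of each library or the first LGR DMSO sample.

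**Figure D2:**
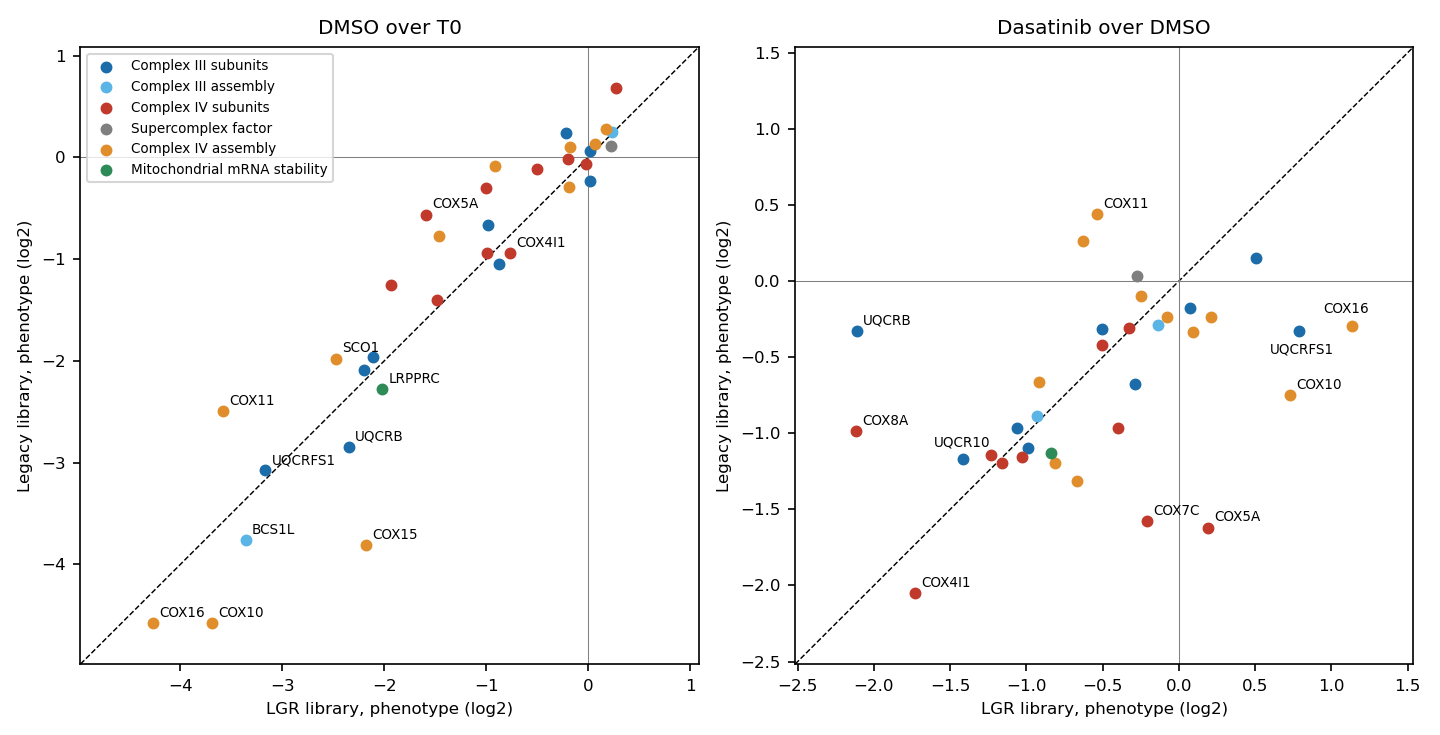
Phenotype (log2) of the 34 genes in the LGR library (x axis) and the legacy library (y axis), for DMSO over T0 (left) and dasatinib over DMSO (right), 1 point per gene, with a dashed line where both are equal. The left panel follows the line from about 0 to below −4, with r of 0.94, and the right panel is a loose cloud, with r of 0.42, in which COX4I1 lies low on both axes.

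Some start sites lie close to that of another gene on the opposite strand, and the values of both are given side by side. BCS1L starts 60 bp from ZNF142, UQCRQ 9 bp from GDF9, COX15 107 bp from CUTC and COX4I1 151 bp from EMC8, and none of these neighbours was called in any of the 6 comparisons. SCO1 starts 61 bp from ADPRM, which was called in LGR DMSO over T0 at −1.13 and gave −0.17 in legacy. UQCR10 starts 362 bp from ZMAT5, a protein of the minor spliceosome. ZMAT5 gave −3.38, −4.26, −4.27 and −4.82 in the 4 growth comparisons, called in each, while UQCR10 gave −0.37, −0.34, 0.02 and −0.24. No guide site was shared between a gene and its neighbour. ZSWIM7, 120 bp from TTC19, and LRRC41, 82 bp from UQCRH, were not called in any comparison. COX10-DT, 46 bp from COX10, and UQCRFS1-DT, 102 bp from UQCRFS1, had no guides in the library.

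Under dasatinib fewer of these genes passed the test, and COX4I1 was called in both libraries. Dasatinib over DMSO called 2 of the 34 genes lower in LGR, COX4I1 and UQCRB, against 0.765% of all genes. In legacy it called 4, COX4I1, COX6C, COX17 and LRPPRC, against 0.77%. None of the 34 was called higher, against 1.46% of all genes in LGR and 1.33% in legacy, and none with a positive phenotype had an unadjusted exact Mann-Whitney p under 0.05. The median phenotype was −0.51 in LGR and −0.67 in legacy, beside 0.04 and −0.0007 over all genes.

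No single guide to these genes passed in either library. The edgeR test called 0 of 174 guides lower in LGR, against 0.00393% of all guides, and 0 of 170 in legacy, against 0.0349%. It called 0 higher in LGR, against 0.0954%, and 0 in legacy, against 0.572%. At an unadjusted edgeR p under 0.05, 25 guides were lower and 9 higher in LGR, against 4.6% and 7.4% of all guides. In legacy 28 were lower and 5 higher at that p, against 4.54% and 8.24%. DESeq2 called 2 lower and 1 higher in LGR, against 0.349% and 1.71%, and 5 lower and 0 higher in legacy, against 0.368% and 2.04%.

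COX4I1 stood lower in every dasatinib sample than in any DMSO sample of the same library. Averaged over its 5 guides it stood at 0.07 and −0.06 in LGR T0, at −0.52 and −0.58 in DMSO and at −1.83 and −2.26 in dasatinib. In legacy it stood at −0.32 and −0.14 in T0, at −0.77 and −0.76 in DMSO and at −1.96 and −2.72 in dasatinib. The phenotype was −1.73 in LGR, or 3.31-fold lower, and −2.05 in legacy, or 4.14-fold lower, and was the furthest of the 34 in legacy. For the gene mean limma gave −1.49 ± 0.21 (SE; n = 2 against 2) with an adjusted p of 0.0173 in LGR and −1.57 ± 0.26 with an adjusted p of 0.0359 in legacy. All 5 guides had a negative log2 change in both libraries, from −0.77 to −1.79 in LGR and from −0.13 to −1.97 in legacy. The 5 guides lay within 35 bp and so test nearly the same stretch of DNA. The call in legacy was lost without the second dasatinib sample, at −1.75.

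**Figure D3:**
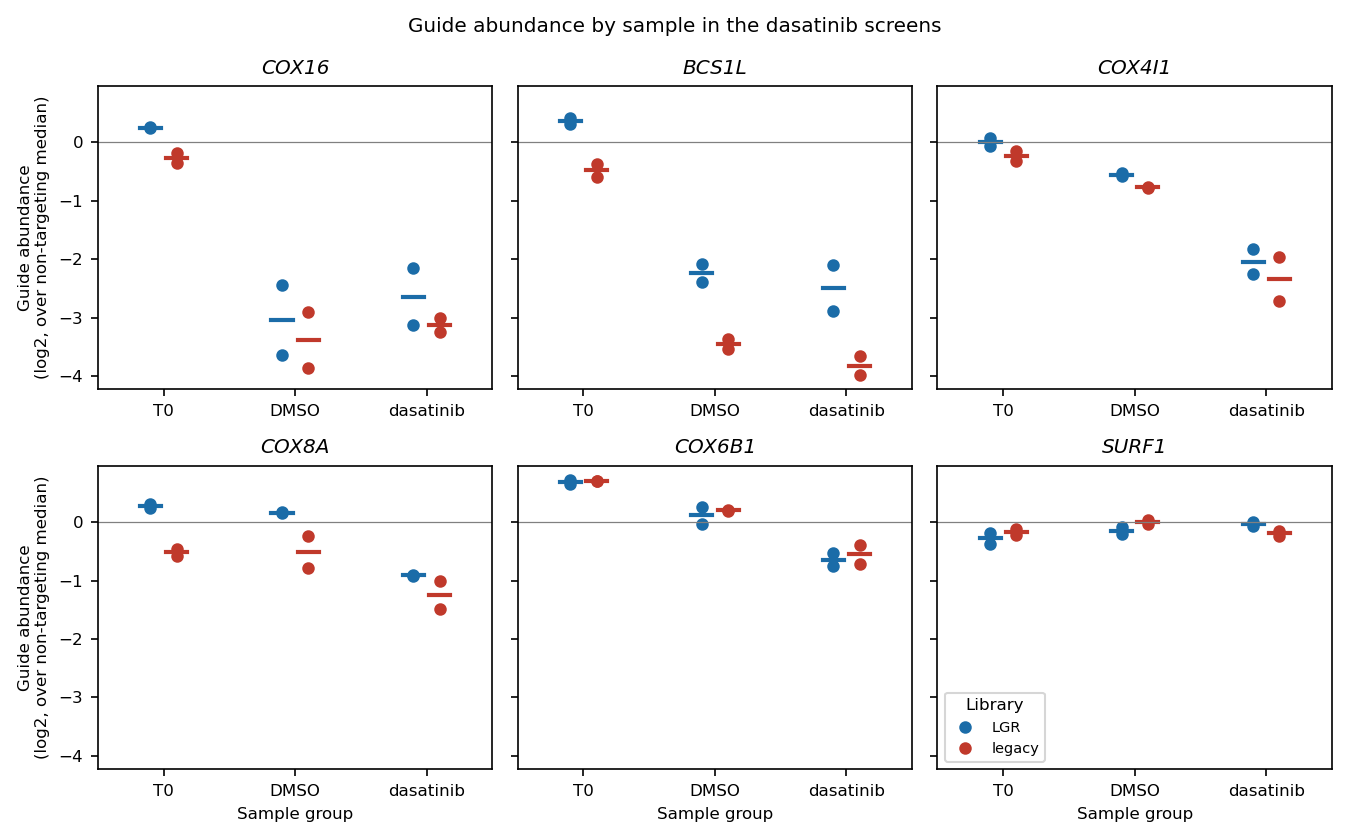
Guide abundance relative to the median non-targeting guide (log2, mean over the guides of a gene with at least 50 counts at T0) in T0, DMSO and dasatinib samples of both libraries, 1 point per sample and a bar at each group mean, for 6 of the genes. COX16 and BCS1L drop between T0 and DMSO, COX4I1 drops mainly between DMSO and dasatinib, and the SURF1 samples lie between −0.36 and 0.035.

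UQCRB stood at −2.25 and −1.93 in LGR DMSO and at −3.16 and −3.13 in dasatinib. Its call there, a phenotype of −2.11, rested on 2 guides, and it was lost without a count minimum and with a minimum of 100 counts. It was also lost when guides were kept by their T0 counts (−1.79), a choice made after seeing the data. In legacy UQCRB stood at −2.83 and −2.70 in DMSO and at −2.90 and −3.25 in dasatinib, with a phenotype of −0.33. Keeping guides by T0 counts called COX4I1, UQCRC1 and UQCRQ in LGR and COX4I1, UQCRC1, COX6C, COX17 and LRPPRC in legacy.

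COX6C, a small transmembrane subunit, stood at −1.07 and −1.46 in legacy DMSO and at −1.87 and −2.66 in dasatinib, and in LGR at −1.09 and −1.0 and then at −1.84 and −1.69. Its phenotype was −1.16 in legacy, called, and −1.03 in LGR, not called. COX17 stood at 0.19 and −0.16 in legacy DMSO and at −1.27 and −0.72 in dasatinib, and in LGR at −0.35 and −0.39 and then at −0.98 and −0.84. Its phenotypes were −1.20 and −0.81. LRPPRC stood at −1.63 and −1.50 in legacy DMSO and at −2.71 and −2.73 in dasatinib, while in LGR it stood at −0.91 and −1.35 and then at −1.94 and −1.16, which overlapped. Its phenotypes were −1.13 in legacy and −0.84 in LGR. None of these 3 passed limma in legacy, with adjusted p of 0.0598, 0.106 and 0.109, and each was lost as a call without some of the 4 legacy samples. COX6C was lost without the first DMSO or the second dasatinib sample, COX17 without the first DMSO or the first dasatinib sample, and LRPPRC without the second DMSO or either dasatinib sample. With a minimum of 100 counts the calls of COX6C and COX17 were lost as well.

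COX8A, a small subunit of complex IV, changed little in growth, with phenotypes between −0.20 and −0.02, and had the furthest dasatinib phenotype of the 34 in LGR, −2.12. It was not called by the gene score (exact Mann-Whitney p of 0.095), whereas limma gave −1.08 ± 0.17 with an adjusted p of 0.0317. Averaged over its guides it stood at 0.15 and 0.18 in LGR DMSO and at −0.90 and −0.92 in dasatinib. In legacy it stood at −0.24 and −0.79 and then at −1.001 and −1.49, with a phenotype of −0.99 and a limma adjusted p of 0.228. COX5A gave −1.62 in legacy, where limma gave −0.99 ± 0.17 with an adjusted p of 0.0431, and 0.19 in LGR.

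Across both libraries 5 of the 34 genes (14.7%) stood at or below −1 in dasatinib over DMSO, namely UQCR10, COX4I1, COX6B1, COX6C and COX7B, beside 0.882% of all genes scored in both. UQCR10, COX6B1 and COX7B were not called in either library, with −1.41 and −1.17, −1.23 and −1.14, and −1.16 and −1.19 in LGR and legacy. Of the 5, 4 are complex IV subunits. The phenotype was negative in both libraries for 23 of the 34 genes (67.6%), beside 27.0% of all genes, and r between the libraries was 0.42 over the 34 genes and over all genes. No guide differed between the libraries in its dasatinib over DMSO change by the edgeR interaction, against 0.00301% of all guides, and 19 of the 169 guides tested did at an unadjusted p under 0.05, against 10.2% of all guides. A difference between the libraries in COX5A or UQCRB under dasatinib was not shown by that test.

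For the genes lost furthest in growth, the dasatinib over DMSO phenotypes could not show whether a further fall occurred. The minimum of 50 counts left out guides that were low in both arms. COX16 stood at −3.65 and −2.45 in LGR DMSO and at −2.16 and −3.12 in dasatinib, and its phenotypes were 1.14 in LGR and −0.29 in legacy, on 2 guides in each. In LGR 4 of its 5 guides were under 50 counts in DMSO, so 1 of the 2 was kept by its dasatinib counts alone. COX10 gave 0.73 and −0.75, UQCRFS1 gave 0.79 and −0.33, COX11 gave −0.53 and 0.44 and BCS1L gave −0.93 and −0.89. These values were scored on 1 to 4 guides of each gene. A guide under 50 counts in DMSO was kept only where it reached 50 in dasatinib, so such guides entered only by standing higher there. Of the 5 COX10 guides, 3 were under 50 counts in DMSO in each library. The edgeR test, with its minimum of 10 counts, covered most guides left out and called none. For COX10 guides lost in growth it gave 0.67 ± 0.90 (SE) and −3.95 ± 1.38 in LGR. In legacy it gave 0.18 ± 1.87 and 0.40 ± 1.53. The 2 COX10 guides that changed least in DMSO over T0 gave 0.095 and 1.59 in LGR and −0.80 and −0.49 in legacy. Without a count minimum the gene score called none of COX16, COX10, UQCRFS1, COX11 and BCS1L. In LGR all dasatinib samples lay below all DMSO samples for 15 of the 34 genes, against 19.7% of all genes, and above them for 2, UQCRFS1 and SURF1, against 28.7%. In legacy they lay below for 20, against 27.9%, and above for COX15 alone, against 21.2%. For comparison, DMSO lay below T0 for 25 of the 34 in LGR, against 39.6%, and for 21 in legacy, against 36.8%.

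From T0 to the end of the dasatinib arm the median phenotype of the 34 genes was −1.78 in LGR and −1.63 in legacy, beside −0.13 and −0.16 over all genes. In LGR 24 of the 34 stood at or below −1 and in legacy 22, beside 12.4% and 11.6% of all genes. These values join growth and drug and were not tested. From the plasmid to T0 no gene of the 34 stood at or below −1. Over all genes 0.516% did at 1000-fold and 0.735% at 100-fold coverage in the survival screens. In the dasatinib screens 3.99% did in LGR and 3.7% in legacy, so a count of 0 among 34 is near these shares. The medians of the 34 lay between −0.13 and 0.06 over the 4 screens, beside −0.04 to 0.02 over all genes. The LGR plasmid sample used here was sequenced on another instrument, the HiSeq, than the T0 samples, and the NextSeq sample of that plasmid was not used.

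Guides to these genes were well represented before selection. In the plasmids no guide was at 0, with 552 to 2352 counts in LGR and 269 to 4757 in legacy. When the libraries were titrated to 10-fold coverage, 2 and 1 of the 175 guides were at 0 in the 2 LGR samples, beside 0.45% and 0.325% of all guides, and 4 and 5 in the 2 legacy samples, beside 6.24% and 4.807%. At 50-fold coverage and above none was at 0 in either library.

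Other respiratory genes give the setting. Of 36 complex I subunits in the library, 15, 16, 12 and 12 were called lower in the 4 growth comparisons, and under dasatinib 15 of 35 scored in LGR and 13 of 36 in legacy, with median phenotypes of −1.51 and −1.31. NDUFS8, a core subunit of complex I, was the furthest in legacy, at −3.35. Of 20 ATP synthase genes 11 were called in each growth comparison, and under dasatinib none of 19 scored in LGR or of 20 in legacy. Of 6 complex II genes 4, 3, 3 and 4 were called in growth, SDHC being the furthest in each. Among 26 further complex III and IV factors 8, 6, 7 and 5 were called, led by OXA1L, the inner membrane insertase, at −2.99, −3.51, −5.21 and −3.67. Cytochrome c (CYCS), which carries electrons between the 2 complexes, gave −0.64, −0.37, −1.08 and −1.29 and was not called. Of 6 tissue isoforms of complex IV subunits 1, 1, 0 and 0 were called. Under dasatinib the further factors had 1 call in each library, OXA1L in LGR, higher at 3.89 on 1 guide, and COA5 in legacy, lower at −1.33, and complex II had 1, SDHAF1 in LGR at −1.78.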

How the data were processed

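The authors deposited raw guide counts, made with a version of the ScreenProcessing counting step. The submitters' processing notes name bcl2fastq and hg19 without versions. Counts of 40 samples were used, and each column was matched to its sample. The LGR CRISPRi plasmid sequenced on the NextSeq was not among them. Per the study's methods, guides that start with a run of G are hard to read on the sequencer used. Counts were turned into CPM, log2 changes were centred on the non-targeting median, and genes were scored after the methods, which give the averaging of the 3 strongest guides, the comparison with non-targeting guides by Mann-Whitney test and a false discovery rate of 0.05. The minimum of 50 counts in either arm, 0 set to 1 and pseudo-genes of 5 non-targeting guides each, for the false discovery rate, were set here. The start site of lowest p stood for a gene. Guides were tested with edgeR 4.0.16 (quasi-likelihood, TMM, at least 10 counts in 1 sample, Benjamini-Hochberg adjusted p of 0.05 over all guides), gene means with limma 3.58.1, and DESeq2 1.42.0 was an alternative (R 4.3.3, Python 3.11.15, scipy 1.17.1). With the single T0 sample at 1000-fold coverage, T0 is assumed to vary like Tf. The gene score, the edgeR guide test and limma on gene means were tested on simulated data modelled on LGR DMSO over T0. The other comparisons, the edgeR interaction, the replicate blocks and DESeq2 were not. Replicate numbers in the labels pair no samples: correlations of same-numbered deviations were near 0.

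The genes, lists and tests were chosen with earlier results of these data known. Values per sample were given for the 4 called genes of largest phenotype in each comparison, for genes called in one library or coverage alone, and for a gene whose start sites differed. Other pathway genes named are among the furthest called of each list, of which 1 is not reported here, and neighbours are all genes starting within 1000 bp. RefSeq sequences (GRCh38.p14) came from a table of start regions. Guide sequences were not analysed here. Alternatives covered scaling, count minimums, guide averaging, DESeq2, limma, replicate blocks, T0 samples in the fit and leaving out each sample. Counting error is the only error that the depth describes.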

Additional observations from a re-analysis of the deposited data

Results flagged for a closer look

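TTC19 guides at 100-fold coverage had 1 Tf sample apart from the others: the first stood at 0.19 and the other 3 at −0.19, −0.16 and −0.21, so that the gap to the nearest sample was 0.882 of the range, above the critical value of Dixon's test for 4 samples. This was the 1 flag among 34 groups of 4 samples examined, and chance alone flags about 1 in 20 such groups.

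A COX5A guide changed differently in the 2 libraries between T0 and DMSO. The change in legacy was 1.70 above that in LGR by the edgeR interaction (SE 0.36, adjusted p of 0.0446). The T0 and DMSO counts were 188 and 172, then 51 and 60, in LGR, and 226 and 189, then 211 and 218, in legacy. Library and transduction cannot be told apart here. A second COX5A guide gave 1.83 ± 0.45 with an adjusted p of 0.0986.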

How the results depend on the processing

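No gene call reversed its direction under any alternative run, whereas the median over all genes changed sign without centring in the comparisons named below. Over the single-gene calls, 561 checks kept the direction and the call and 32 lost the call, 13 of them with a Benjamini-Hochberg adjusted Mann-Whitney p, where the calls of COX10 (3 comparisons), UQCRC1 (3), COX7C and COX17 (2 each) and of CYC1, COX15 and LRPPRC (1 each) were lost. In growth the counts of the 34 genes and their guides called lower stayed within 1.5 times under the other settings, except as leaving out samples gives below. Of guides called higher, the 2 in LGR DMSO became 1 with scaling on non-targeting guides, and the 0 became 1 at 100-fold with DESeq2 and 1 at 1000-fold without TMM. Under dasatinib the counts of genes called lower, 2 in LGR and 4 in legacy, became 1 and 2 with a minimum of 100 counts, and limma on gene means gave 3 and 2. With the replicate block limma gave 9 and 9, and 1 gene higher in LGR, COX16, whose mean included a guide kept by its dasatinib counts alone. The 0 guides lower became 2 and 5 with DESeq2, 1 and 6 with the replicate block and 2 and 5 with the T0 samples in the fit, and the 0 guides higher in LGR became 1, to COX10, with DESeq2. The 1 guide that differed between libraries became 0 without TMM. Over all guides, dasatinib over DMSO called 4 lower and 97 higher in LGR and 35 and 574 in legacy, beside 355 and 1743 and 369 and 2044 with DESeq2, 189 and 785 and 397 and 2041 with the replicate block, and 232 and 950 and 461 and 1883 with T0 in the fit. Over all genes, a minimum of 100 counts called 91 lower and 167 higher in LGR and 74 and 155 in legacy in place of 142 and 271 and 143 and 248, and limma with the block called 338 and 722 and 391 and 505. No minimum gave 168 and 436 in LGR, keeping guides by T0 counts, chosen after seeing the data, 164 and 428 in LGR and 204 and 397 in legacy, and the adjusted Mann-Whitney p 83 and 133 and 98 and 136. Over all genes in growth, limma called 3451 lower at 1000-fold coverage and 3086 in LGR DMSO in place of 2159 and 1931, and the adjusted Mann-Whitney p called 1272 in LGR DMSO and 1152 in legacy in place of 1931 and 1754. Over all guides, those higher in DMSO over T0, 551 in LGR and 630 in legacy, became 284 and 343 with scaling on non-targeting guides, and 855 in LGR with DESeq2; those higher under dasatinib in LGR became 64 without TMM and 60 with scaling on non-targeting guides. Without centring on non-targeting guides the median over all genes moved from 0.04 to −0.24 in LGR dasatinib, from −0.0007 to −0.19 in legacy dasatinib, from −0.06 to 0.07 at 1000-fold coverage, from −0.09 to 0.03 at 100-fold and from −0.11 to −0.0059 in legacy DMSO. Same-numbered samples deviated together with correlations of 0.0017 in LGR, −0.0013 in legacy and 0.0018 at 100-fold coverage, so the numbers pair nothing that these data show. At 100-fold the replicate block by T0 sample gave 28 guides and by number 24, the latter on Tf 1 and 2, which gave 22 without a block, a fit added after seeing the data.

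Leaving out 1 sample at a time gave 16 to 17, 13 to 14, 14 to 17 and 13 to 14 genes lower in the 4 growth comparisons, and 58 to 60, 8 to 28, 32 to 57 and 36 to 55 guides. Without the second legacy DMSO sample it gave 1 gene higher, COX6A1, and otherwise 0 in growth. Under dasatinib it gave 2 to 3 genes lower in LGR and 1 to 3 in legacy, 0 to 30 and 0 to 25 guides lower, 0 to 11 and 0 to 6 guides higher, and 0 genes higher in both. The guides that differed between libraries ranged from 0 to 5 in DMSO over T0 and were 0 under dasatinib. The highest dasatinib guide counts came without 1 of the 2 dasatinib samples, 30 and 29 in LGR, beside 9.08% and 8.51% of all guides lower, and 25 and 22 in legacy, beside 6.19% and 6.09%. In these fits 385 and 379 non-targeting guides were called in LGR and 288 and 295 in legacy, and the lone sample is assumed to vary like the DMSO samples. The limits lie in depth and replication: the dasatinib screens have technical duplicates, and 35 and 34 of the 175 guides were under 50 counts in DMSO.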
